A study of Mus musculus with 6 samples.

Results

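Purinergic and adenosine signalling was examined through 9 genes, of 54532 in the expression table, which were taken by their symbols. These were the enzymes Entpd1, Nt5e and Ada and the adenosine receptors Adora2a and Adora2b. The others were the ATP-gated channels P2rx4 and P2rx7 and the nucleotide receptors P2ry2 and P2ry6. RNA sequencing had been performed on macrophages recruited from the peritoneal cavity of C57BL/6J mice, either wild type (WT, 3 libraries, replicates 1, 2 and 3) or carrying a knockout of progranulin (PGRN KO, 3 libraries, replicates 4, 5 and 6). Cells of both genotypes were plated at 2000000 per well and met 2000000 live Candida albicans, 1 fungal cell per macrophage, for 6 hours. The WT libraries are titled control, but their treatment label is the same fungal challenge, so no unchallenged cells are compared here. The methods of the study name bone marrow as the source of these macrophages, and the study states another ratio of fungus to macrophages, in conflict with the labels, which were followed here. It also gives different suppliers for the KO and the WT mice, so that supplier and genotype cannot be told apart. How many mice stand behind each library is not given, so p-values measure only the spread between these libraries.

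Extracellular nucleotides are danger signals. ATP and UTP leave stressed or stimulated cells, act on P2X channels and on P2Y receptors, which couple to G proteins, and are then degraded: CD39 (Entpd1) removes phosphates from ATP and ADP, CD73 (Nt5e) turns AMP into adenosine, and adenosine deaminase (Ada) converts adenosine into inosine. In macrophages P2X7 is known for opening the way to NLRP3 inflammasome activation, and the adenosine A2 receptors are known for raising cyclic AMP and restraining inflammatory output.

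P2ry6, P2ry2 and P2rx7 transcripts were lower in PGRN KO than in WT, at 29.1%, 50.1% and 56.9% of the WT level, whereas P2rx4 was higher, at 171%. Thus 4 of the 8 members that could be tested passed an adjusted p of 0.05, 1 of them higher and 3 lower. The background was large: of all 8882 genes tested, 24.2% passed, 10.4% higher and 13.8% lower. No difference past the threshold was seen for the enzymes or for either adenosine receptor.

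Levels are given as FPKM (fragments per kilobase of gene model, scaled to library size, as deposited). Differences are log2 fold changes of FPKM + 1, PGRN KO against WT, from limma fitted over all tested genes, with adjustment over all of them; genes with a mean of at least 1 FPKM over the 6 libraries were tested. The libraries held 15996786 to 17551619 counted fragments. Grn, the deleted gene, ranged from 323 to 337 FPKM in WT and reached at most 0.0167 FPKM in PGRN KO, that is, 0 or 1 fragments a library. PGRN KO replicate 6 stood apart: its Pearson correlation across genes with replicates 4 and 5 was 0.971 and 0.972, against 0.992 between those libraries and 0.991 to 0.993 within WT, and its deviations ran with gene length (Spearman correlation -0.47 across genes, 0.15 to 0.24 in the other 5 libraries). Values without it are therefore given beside the 8 tested members.

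The 8 macrophage markers summed to 11618 to 12561 FPKM in WT and 10445 to 14377 FPKM in PGRN KO, mostly from Lyz2, Cd14 and Cd68. Adgre1, which encodes F4/80, averaged 186 and 176 FPKM. All 8 were tested, and 1 passed in each direction. Mertk was higher in PGRN KO (1.41 and 3.24 FPKM on average, limma adjusted p 0.00640). Csf1r was lower (32.5 and 24.7 FPKM, limma adjusted p 0.0178). Some markers of other cells differed between genotypes. Both tested B cell markers and both tested mast cell markers were higher in PGRN KO, while 1 of 3 tested neutrophil markers (S100a8), 1 of 4 of monocyte-derived macrophages (Ly6c2) and the 1 tested dendritic cell marker (Ccr7) were lower. The 1 tested T and NK cell marker did not pass, and no eosinophil, mesothelial or stromal marker reached the expression limit. The 6 B cell markers summed to 1.51 to 2.51 FPKM in WT and 6.76 to 9.0 FPKM in PGRN KO, and the 6 mast cell markers to 2.29 to 3.19 and 9.72 to 14 FPKM. Of the mast cell markers, 5 had a higher mean in PGRN KO, whereas Kit was lower (0.345 and 0.210 FPKM). Markers of monocyte-derived peritoneal macrophages (6 genes, H2-Ab1 the most abundant) summed to 230 to 243 and 122 to 206 FPKM, and those of resident peritoneal macrophages (7 genes) to 27.4 to 31.8 and 43.3 to 49.4 FPKM. Most of the latter difference was Cd5l (7.21 and 22.8 FPKM on average), which passed together with Icam2, whereas Gata6 (3.95 and 4.50 FPKM) and Prg4 (14.2 and 12.7 FPKM) did not pass. Timd4 was under the expression limit and lower in PGRN KO (0.149 and 0.0258 FPKM). Of these 7 genes, 4 had a higher mean in PGRN KO. Of 8 neutrophil markers, Ly6g and Cxcr2 had no fragment in any library, while the sum, carried by S100a8, Mmp8 and Csf3r, was 79.7 to 87.0 and 52.8 to 54.3 FPKM. The 8 T and NK cell markers summed to 2.41 to 2.82 and 3.73 to 5.19 FPKM, the 5 dendritic cell markers to 27.4 to 34.6 and 15.9 to 19.3 FPKM (Ccr7 the most abundant), and the 7 mesothelial and stromal markers to 1.05 to 1.17 and 1.89 to 3.42 FPKM. Of 5 eosinophil markers, Epx, Prg2 and Prg3 had no fragment, and the sum was at most 0.245 FPKM. The part of these cells in the differences below was not tested, and in bulk RNA fewer cells of a type and less RNA per cell cannot be told apart.

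The 4 members that changed lie as neighbours in pairs. P2rx7 (chromosome 5, 122643911 to 122691432) and P2rx4 (chromosome 5, 122707544 to 122729738) are on the plus strand of GRCm38, 16.1 kb apart, and P2ry6 (chromosome 7, 100937630 to 100974649) and P2ry2 (chromosome 7, 100996568 to 101012866) are on the minus strand, 21.9 kb apart. Since members of a pair moved together at one locus and in opposite directions at the other, the sequences just before their transcription starts are shown. RefSeq windows (GRCm38.p6) were found for 7 of the 9 members, not for P2ry6 and Adora2a, and the 250 bases before the start are printed 5′ to 3′ for P2rx4, P2rx7 and P2ry2, cut for P2rx7 where its first exon begins in GENCODE. Capitals mark matches, on either strand, to an AP-1 site (TGANTCA), to the core of a cyclic AMP response element (TGACG) or to a GC box (GGGCGG).
P2rx4, chr5:122707294-122707543, plus strand: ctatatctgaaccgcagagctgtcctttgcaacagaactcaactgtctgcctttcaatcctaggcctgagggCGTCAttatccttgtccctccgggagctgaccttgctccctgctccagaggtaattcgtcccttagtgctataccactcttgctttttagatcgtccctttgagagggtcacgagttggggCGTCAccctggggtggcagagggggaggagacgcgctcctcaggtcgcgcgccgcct
P2rx7, chr5:122643677-122643910, plus strand: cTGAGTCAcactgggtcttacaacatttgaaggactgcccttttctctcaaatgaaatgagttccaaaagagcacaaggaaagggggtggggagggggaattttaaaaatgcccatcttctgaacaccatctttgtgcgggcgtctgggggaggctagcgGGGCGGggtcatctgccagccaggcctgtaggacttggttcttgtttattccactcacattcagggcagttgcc
P2ry2, chr7:101012054-101012303, minus strand: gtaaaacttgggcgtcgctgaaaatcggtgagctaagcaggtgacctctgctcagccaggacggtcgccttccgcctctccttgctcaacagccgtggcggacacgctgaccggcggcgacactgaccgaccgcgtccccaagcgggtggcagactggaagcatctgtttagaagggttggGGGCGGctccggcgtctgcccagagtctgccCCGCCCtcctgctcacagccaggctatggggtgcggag

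The neighbouring channel genes held different motifs. The P2rx7 window held 1 AP-1 match, near the upstream end of the window, and 1 GC box at 90 bases. Distances are counted from the RefSeq start, which for P2rx7 lies 16 bases past the end of the printed sequence. Of all windows of this length, 6.5% and 30.4% hold such a match. The P2rx4 window held neither but had 2 matches to the cyclic AMP response core, at 178 and 57 bases, which 17.8% of all windows hold at least once. The P2ry2 window held 2 GC boxes, at 69 and 38 bases (32.7% of all windows hold at least 1), and no AP-1 or cyclic AMP response match. No window held TTCNNNGAA (the STAT site GAS), CACGTG (the core of the lysosomal CLEAR element) or GAGGAA (a PU.1 core); CACGTG occurs in 6.0% of all windows of 250 bases. P2rx7 and P2ry2 have 2 RefSeq windows each, of which the first listed is shown, and 1 P2ry2 transcript in GENCODE begins upstream of the window. Matches of letters are descriptions and say nothing of binding in these cells.

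**Figure D1:**
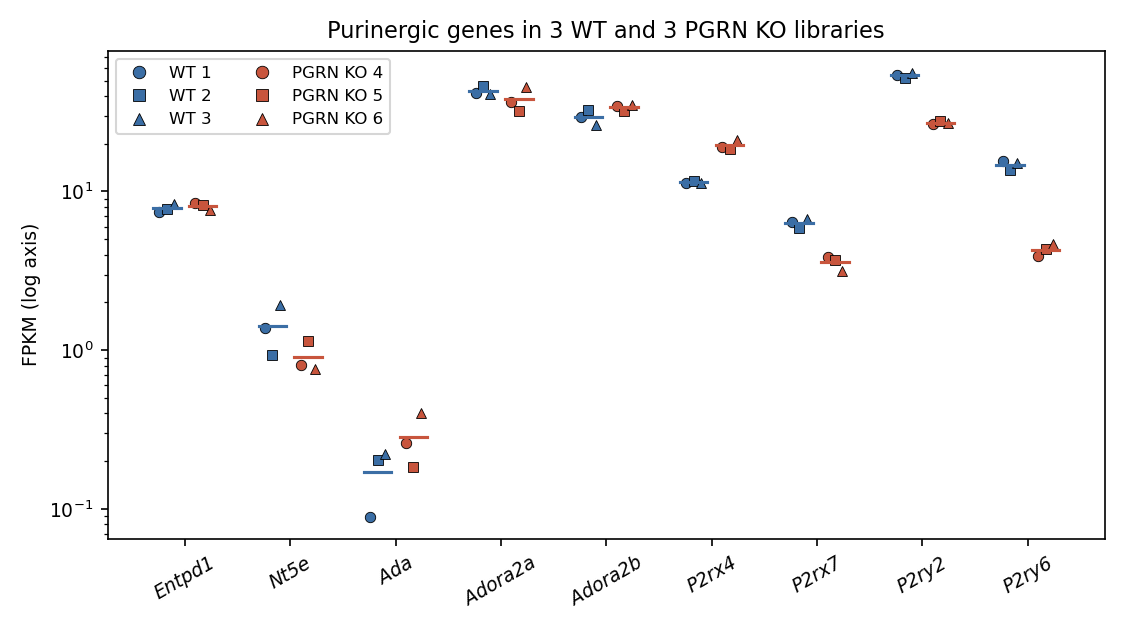
FPKM of the 9 genes on a log axis, 1 point per library (blue WT, red PGRN KO), with the mean of each group as a line. The points of the genotypes are apart for P2rx4, P2rx7, P2ry2 and P2ry6, and overlap for the other 5 genes.

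P2ry6 encodes the receptor for UDP, which signals through Gq and phospholipase C. WT replicates 1, 2 and 3 gave 15.5, 13.7 and 15.1 FPKM, and PGRN KO replicates 4, 5 and 6 gave 3.92, 4.35 and 4.65 FPKM. Every PGRN KO library was thus well below every WT library. The mean fell from 14.8 ± 0.965 to 4.31 ± 0.367 FPKM (SD, n = 3 each). The log2 fold change was -1.78 with a pseudocount of 0.01, and -1.57 on the main scale of FPKM + 1 (SE 0.10, limma adjusted p 0.00119). This was the 15th largest fall among all 8882 tested genes, Grn included. The values rest on 196 to 787 fragments a library, and without PGRN KO replicate 6 the log2 fold change was -1.62.

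P2ry2 encodes a receptor for ATP and UTP that is best known on phagocytes for following nucleotides released by dying cells. It was the most abundant member in WT, at 54.3, 52.1 and 55.8 FPKM, while PGRN KO libraries gave 26.7, 27.6 and 26.9 FPKM. Replicates lay close together in both genotypes and the groups were far apart. The mean fell from 54.1 ± 1.83 to 27.1 ± 0.460 FPKM (SD, n = 3 each). The log2 fold change of FPKM + 1 was -0.97 (SE 0.08, limma adjusted p 0.00119), and -0.97 without PGRN KO replicate 6. Neither P2ry2 nor P2ry6 shared any word of 31 bases with transcripts of other genes.

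P2rx7 encodes the channel that needs high ATP and lets potassium leave the cell. The WT libraries gave 6.41, 5.86 and 6.67 FPKM, and those of PGRN KO 3.89, 3.72 and 3.17 FPKM. The lowest WT library was above the highest PGRN KO library. The mean fell from 6.31 ± 0.418 to 3.59 ± 0.377 FPKM (SD, n = 3 each). The log2 fold change was -0.81 with a pseudocount of 0.01, and -0.67 on the main scale of FPKM + 1 (SE 0.10, limma adjusted p 0.00576). Without PGRN KO replicate 6, whose values ran lower the longer the gene, the log2 fold change was -0.60. The gene model of P2rx7 has 5970 bases. Values are per gene, so that its 5 protein-coding transcripts in GENCODE cannot be told apart, and the microRNA gene Mir8115 lies within an exon on the same strand.

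P2rx4 encodes an ATP-gated channel of higher ATP sensitivity, much of which is held in lysosomes. The WT libraries gave 11.3, 11.6 and 11.3 FPKM, and those of PGRN KO 19.0, 18.4 and 21.1 FPKM. All PGRN KO libraries were above all WT libraries, and the WT libraries hardly differed. The mean rose from 11.4 ± 0.194 to 19.5 ± 1.44 FPKM (SD, n = 3 each). The log2 fold change of FPKM + 1 was 0.72 (SE 0.09, limma adjusted p 0.00309), and 0.66 without PGRN KO replicate 6. The gene model of P2rx4 has 7025 bases. Words of 31 bases shared with transcripts of other genes made up 4.43% of its sequence, and 1.94% of that of P2rx7.

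In all 15 or 16 alternative analyses in which they could be tested, P2ry6, P2ry2, P2rx7 and P2rx4 kept their direction and passed the threshold, with adjusted p of at most 0.0140, 0.0147, 0.0387 and 0.0282. An exact two-sided permutation test gave p = 0.10 for each of them, the smallest that 3 against 3 libraries allow. Their groups did not overlap, but this was so for 48.8% of all tested genes.

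**Figure D2:**
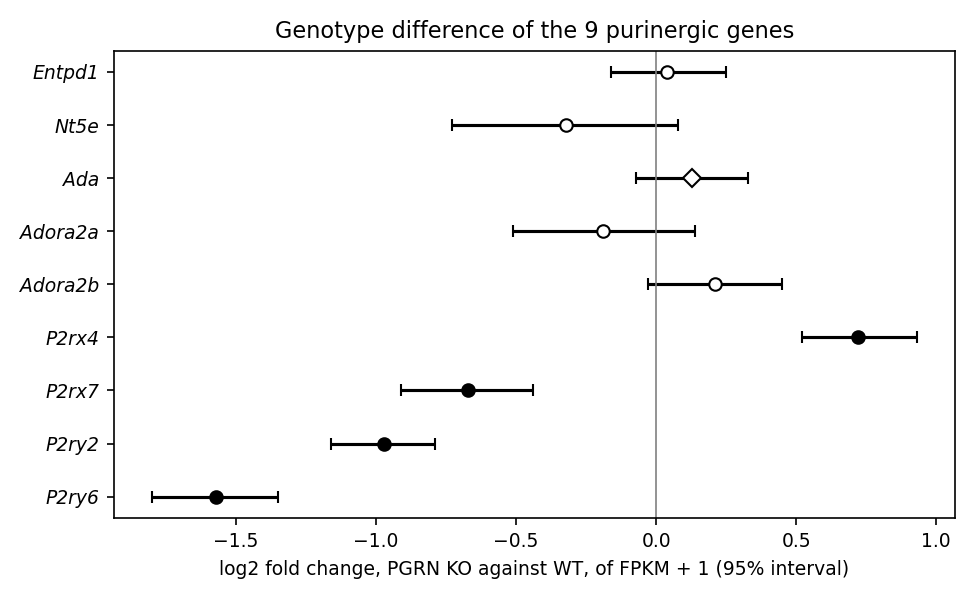
Log2 fold change of FPKM + 1, PGRN KO against WT, with 95% interval. Filled points passed an adjusted p of 0.05 and open points did not; Ada (diamond) lay under the expression limit and comes from the fit without a filter. P2ry6, P2ry2 and P2rx7 lie below 0 and P2rx4 above 0.

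The adenosine receptors did not differ significantly. Adora2a, the high-affinity receptor, gave 42.0, 45.9 and 41.1 FPKM in the WT libraries, against 36.4, 32.0 and 45.7 FPKM in those of PGRN KO. Replicates 4 and 5 were below every WT library, but replicate 6 lay inside the WT range. The genotype means were 43.0 ± 2.56 (WT) and 38.0 ± 7.01 FPKM (PGRN KO, both SD, n = 3), with a log2 fold change of -0.19 (95% interval -0.51 to 0.14) and a limma adjusted p of 0.358. This result rested on replicate 6: without it the log2 fold change was -0.32 and the adjusted p 0.0205, and with sample quality weights, which gave that library a weight of 0.0899, it was -0.28 with an adjusted p of 0.0160.

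Adora2b, the receptor that responds to higher adenosine, gave 29.3, 32.5 and 26.4 FPKM in the WT libraries, against 34.7, 32.2 and 35.3 FPKM in those of PGRN KO. The groups overlapped only through WT replicate 2 and PGRN KO replicate 5. The mean was 29.4 ± 3.03 and 34.0 ± 1.66 FPKM (SD, n = 3 each), with a log2 fold change of 0.21 (95% interval -0.03 to 0.45) and a limma adjusted p of 0.175. It did not pass in any of 16 alternatives (adjusted p 0.0666 to 0.446), and without PGRN KO replicate 6 the log2 fold change was 0.18. The intervals of both adenosine receptors leave room for a change, so that neither can be called unaltered.

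Among the enzymes, Entpd1 (CD39) gave 7.46, 7.73 and 8.30 FPKM in the WT libraries, against 8.45, 8.18 and 7.65 FPKM in those of PGRN KO. The ranges overlapped almost fully. The log2 fold change was 0.04 (95% interval -0.16 to 0.25; limma adjusted p 0.741), and 0.08 without PGRN KO replicate 6 (adjusted p 0.372). Nt5e (CD73) was near the limit of expression, at 1.38, 0.935 and 1.93 FPKM in WT and 0.812, 1.15 and 0.760 FPKM in PGRN KO. The WT libraries spread widely, and the groups overlapped. The mean was 1.41 ± 0.50 and 0.909 ± 0.214 FPKM (SD, n = 3 each), with a log2 fold change of -0.32 (95% interval -0.73 to 0.08; limma adjusted p 0.201), and -0.27 without PGRN KO replicate 6.

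Ada was close to undetected and was not tested, with 0.0896, 0.203 and 0.221 FPKM in WT and 0.260, 0.185 and 0.405 FPKM in PGRN KO. These values came from 17 fragments in all of WT and 30 in all of PGRN KO, a ratio of 1.63 (95% exact interval 0.873 to 3.16, counting error only) once library size is taken into account. No difference was detectable at this depth.

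The order of the members by level changed with genotype. In WT it ran P2ry2, Adora2a, Adora2b, P2ry6, P2rx4, Entpd1, P2rx7, Nt5e and Ada, and no neighbours in this order overlapped. In PGRN KO, Adora2a at 38.0 FPKM and Adora2b at 34.0 FPKM led and overlapped, so that their order was not resolved. P2ry2 came next at 27.1 FPKM, then P2rx4 at 19.5 FPKM, followed by Entpd1 at 8.10, P2ry6 at 4.31, P2rx7 at 3.59, Nt5e at 0.909 and Ada at 0.283 FPKM. Among all tested genes, P2ry6 stood above 72.6% in WT and above 41.7% in PGRN KO, and P2rx4 above 66.9% and 78.3%.

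Ratios of related receptors within a library do not depend on how libraries are scaled to each other. The P2rx4 to P2rx7 ratio of FPKM was 1.76, 1.99 and 1.69 in WT and 4.89, 4.94 and 6.67 in PGRN KO. The balance of the neighbouring channel genes was thus about 3.0 times higher toward P2rx4 in PGRN KO (log2 difference 1.59). The P2ry2 to P2ry6 ratio was 3.49, 3.81 and 3.69 in WT and 6.82, 6.34 and 5.79 in PGRN KO, higher in every PGRN KO library (log2 difference 0.78). The Adora2a to Adora2b ratio was 1.43, 1.41 and 1.56 in WT and 1.05, 0.995 and 1.30 in PGRN KO (log2 difference -0.41). None of the ratios overlapped between genotypes, and the exact two-sided permutation p was 0.10 for each of the 3 ratios, which is the smallest possible and stays 0.10 after Benjamini-Hochberg adjustment over the 3. For P2rx4 to P2rx7 the separation was given in advance, since P2rx4 was higher and P2rx7 lower in every PGRN KO library. The share of other gene ratios without overlap was not examined. These pairs were chosen with the values known, so their p-values add no support.

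**Figure D3:**
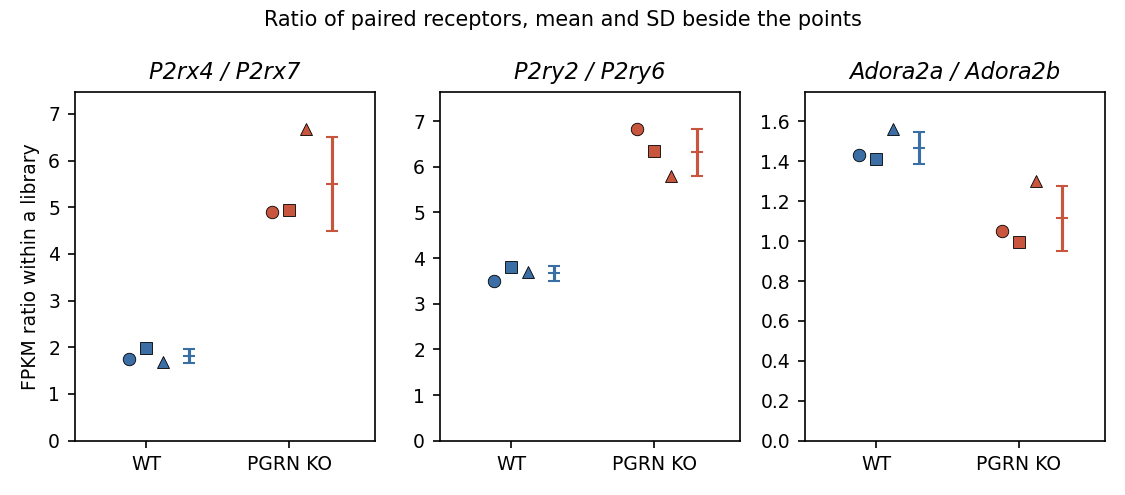
Ratio of FPKM of 2 related receptors within each library (1 point per library), with the mean and SD of each genotype beside the points. The P2rx4 to P2rx7 and P2ry2 to P2ry6 ratios are higher in all PGRN KO libraries, and the Adora2a to Adora2b ratio is lower in all of them.

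The other genes near the receptor pairs are given as a description, since these loci were taken up because both receptors had passed. Within 250 kb of P2rx4 and P2rx7, 6 other genes were tested, with log2 fold changes from -0.38 to 0.40, and 1 of them passed: Anapc5, a subunit of the anaphase-promoting complex, averaged 6.18 ± 0.401 (WT) and 8.45 ± 0.746 FPKM (PGRN KO; SD, n = 3 each; limma adjusted p 0.0278). Within the same distance of P2ry2 and P2ry6, 3 other genes were tested, from -0.46 to 0.27, and 1 passed: Relt, a receptor of the TNF receptor family, was at 2.93 ± 0.502 and 1.84 ± 0.12 FPKM (limma adjusted p 0.0326). Against 24.2% of all tested genes, these counts are too small to set the neighbours apart. The window was set by position, and Anapc5 and Relt are named because they passed.

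**Figure D4:**
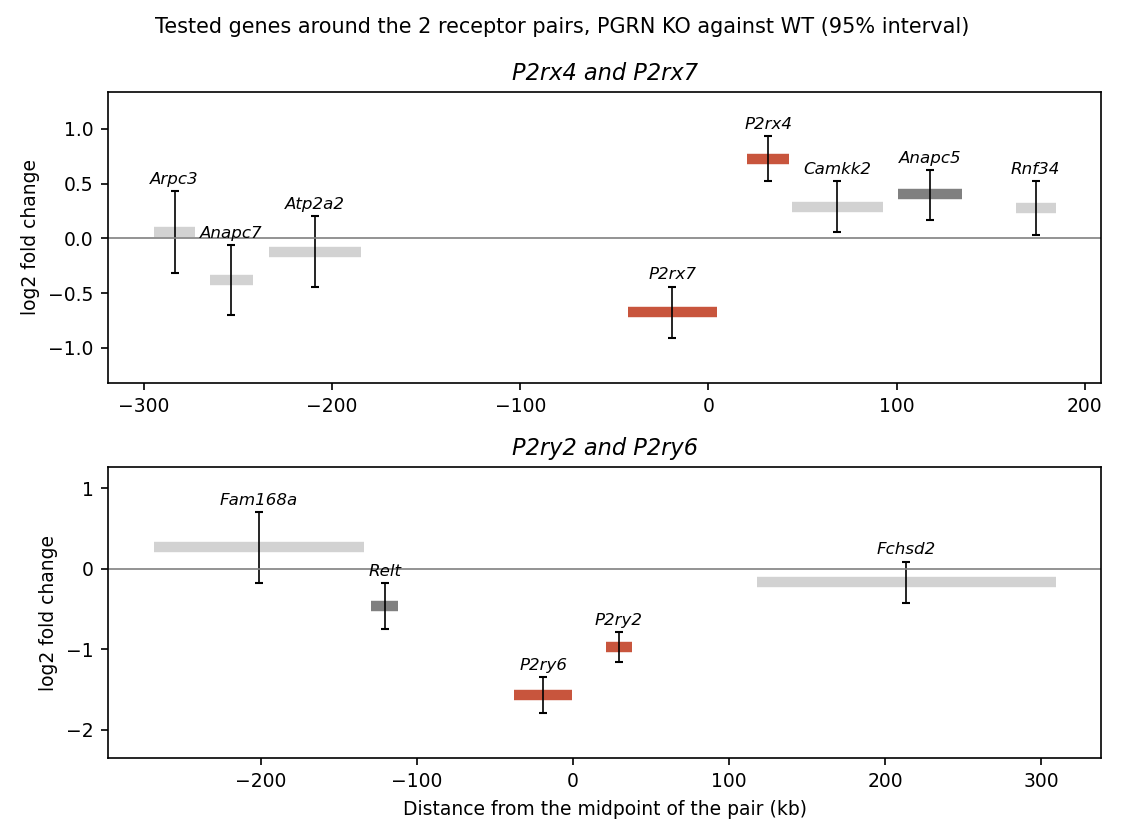
Log2 fold change of FPKM + 1, PGRN KO against WT, with 95% interval (vertical lines), of tested genes against distance from the midpoint of each receptor pair in kb. Each bar spans a gene, receptor genes are red and others grey, and faint bars did not pass an adjusted p of 0.05. Both receptors of each pair lie farther from 0 than the neighbours, which the choice of these loci by their receptors favours.

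Further genes of nucleotide and adenosine biology were described from 5 lists of 81 symbols, of which 79 were in the table, 32 were tested and 11 passed, 5 higher and 6 lower, against 24.2% of all tested genes. None of the 13 other adenosine, P2X and P2Y receptors reached the expression limit, so the members include every receptor of these lists that was tested. The list medians of the log2 fold change were -0.25 for the 8 tested members, 0.11 for 3 ectonucleotidases and NAD hydrolases, 0.11 for 11 genes of adenosine handling, 0.12 for 7 nucleotide release channels and carriers, and -0.10 for 11 genes of receptor coupling, against -0.031 for all tested genes.

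Of the surface enzymes, Enpp4, a hydrolase of the ectonucleotide pyrophosphatase family, was higher in PGRN KO. The WT libraries gave 5.95, 6.87 and 4.51 FPKM and those of PGRN KO 17.4, 14.7 and 11.7 FPKM, without overlap (log2 1.2, SE 0.18; limma adjusted p 0.00586). The NAD hydrolase Cd38 was at 59.6 ± 4.91 and 46.2 ± 4.90 FPKM (SD, n = 3 each) and did not pass (adjusted p 0.0572). Entpd4 had no fragment in any library, but a near-identical copy, Entpd4b, is annotated, so that its level is uncertain.

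On the adenosine handling list, which also holds nucleotidases for other substrates, 2 genes rose and 2 fell. Nt5c3, a cytosolic nucleotidase for pyrimidine monophosphates, rose from 13 ± 2.17 to 29.8 ± 5.31 FPKM (SD, n = 3 each), with a limma adjusted p of 0.00569 and a log2 fold change of 1.13. The equilibrative nucleoside transporter Slc29a1 (ENT1) rose from 2.34 ± 0.113 to 3.19 ± 0.219 FPKM (adjusted p 0.0389), a call kept in 8 of 15 alternatives. The AMP deaminase Ampd2 fell from 8.77 ± 0.330 to 5.37 ± 0.790 FPKM (log2 fold change -0.62, adjusted p 0.00978), a call kept in 15 of 16 alternatives and lost on a TPM scale (adjusted p 0.0519). The concentrative nucleoside transporter Slc28a2 fell from 71.3 ± 2.68 to 53.6 ± 7.05 FPKM (adjusted p 0.0379), a call kept in 9 of 16 alternatives. A share of 46.26% of the Slc28a2 sequence words also occurs in the copy Gm14085, and Ampd2 and Slc29a1 overlap gene models on the opposite strand that a library without strand cannot separate, so the values of these 3 genes are uncertain.

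Among release channels, Calhm6, of the family of large-pore CALHM channels, rose from 2.82 ± 0.892 to 9.11 ± 2.55 FPKM (SD, n = 3 each; log2 fold change 1.40, limma adjusted p 0.00810). Lrrc8d, a subunit of the volume-regulated anion channel, fell from 33.4 ± 2.33 to 17.7 ± 1.62 FPKM (log2 fold change -0.88, adjusted p 0.00277), and it overlaps Lrrc8dos on the opposite strand. Its gene model is long, with 12573 bases. The log2 fold change was -0.68 after a correction for gene length and -0.81 without PGRN KO replicate 6. The call was kept in 16 of 16 alternatives. The ATP release channel Panx1 was low, at 1.18 ± 0.102 and 1.37 ± 0.205 FPKM (adjusted p 0.433).

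Of the coupling genes, Plcb3, a phospholipase C downstream of Gq, rose from 5.96 ± 0.134 to 10.6 ± 1.1 FPKM (SD, n = 3 each; log2 fold change 0.73, limma adjusted p 0.00398); its exons overlap those of Ppp1r14b on the opposite strand. Gnaq, the Gq alpha subunit, fell from 7.12 ± 0.226 to 5.66 ± 0.186 FPKM (adjusted p 0.0416), kept in 7 of 16 alternatives. The inhibitory subunit Gnai3 fell from 102 ± 1.51 to 74.4 ± 6.93 FPKM (adjusted p 0.0187), kept in 11 of 16. The cyclic AMP phosphodiesterase Pde4b fell from 42.6 ± 3.06 to 30.2 ± 4.59 FPKM (adjusted p 0.0350), kept in 9 of 16. Gnas, the stimulatory subunit that adenosine A2 receptors use, was at 2.91 ± 0.208 and 2.99 ± 0.244 FPKM (adjusted p 0.838).

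**Figure D5:**
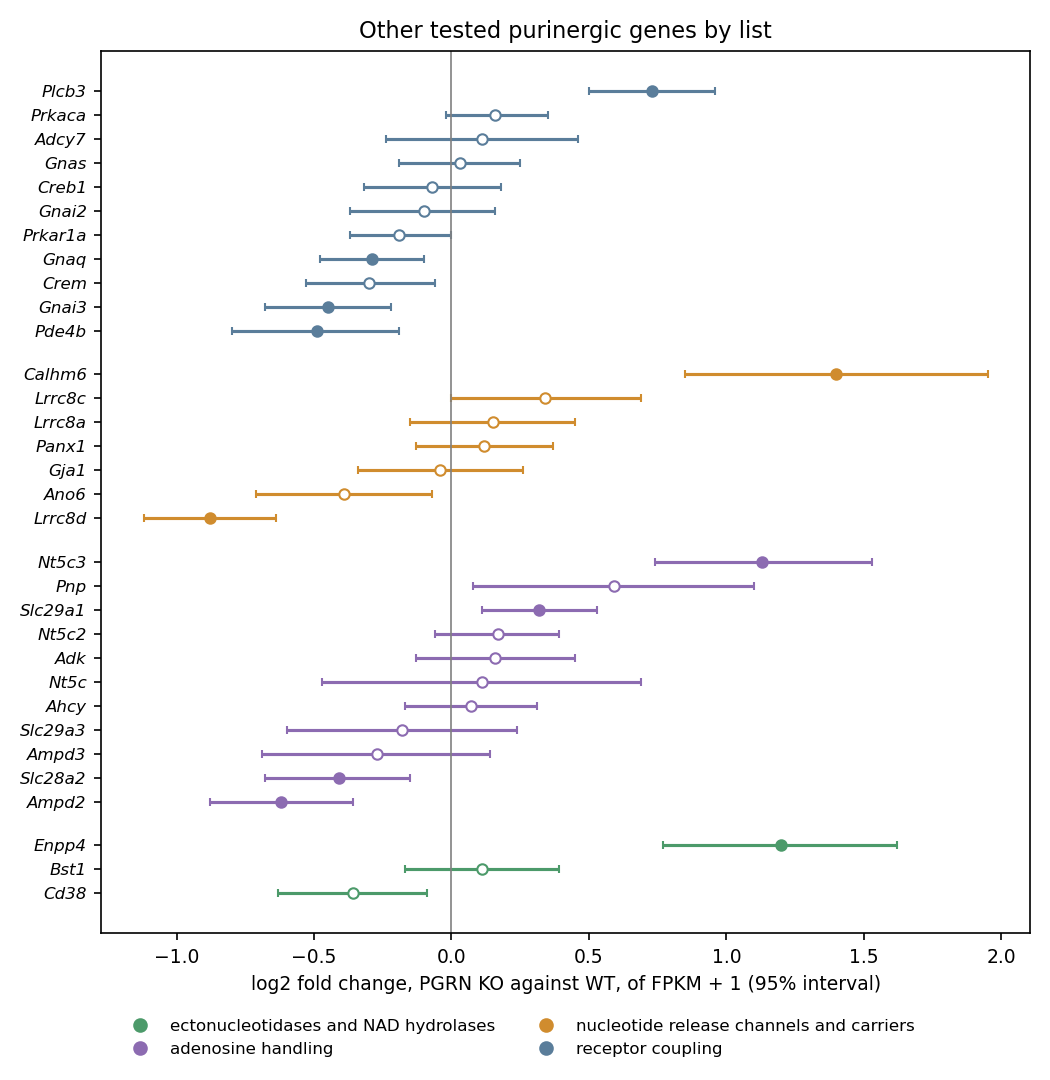
Log2 fold change of FPKM + 1, PGRN KO against WT, with 95% interval, of the 32 tested genes of 4 further lists (colours); filled points passed an adjusted p of 0.05. The 11 filled points lie on both sides of 0.

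Among 8076 tested genes with established symbols, Ly6c2 and Slc1a5 had the profiles over the 6 libraries most like that of P2ry6, each with a Pearson correlation of 0.9988 of log2(FPKM + 1). With 6 libraries in 2 groups such values mostly reflect the difference between genotypes, and 67 genes had a correlation above 0.99. Ly6c2, a monocyte surface antigen and one of the markers of monocyte-derived cells used above, gave 12.7, 11.6 and 11.7 FPKM in the WT libraries and 3.01, 3.47 and 3.70 FPKM in those of PGRN KO, close to the values of P2ry6. Slc1a5, a glutamine transporter, averaged 42.8 ± 0.585 FPKM (WT) and 24.8 ± 0.904 FPKM (PGRN KO, both SD, n = 3).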

How the data were processed

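Polyadenylated RNA of 6 macrophage libraries had been sequenced as paired reads. According to the submitters' processing notes, reads were aligned to mm10 (GRCm38) with HISAT2 (2.0.5) and counted with featureCounts (1.5.0-p3), whereas the methods of the study name HISAT and HTSeq. No source used here names the annotation release; 99.93% of gene identifiers were found in GENCODE M21. The authors deposited FPKM values. Multiplied by gene length these were whole multiples of 1 step per library (100.0% of values above 0, tolerance 0.001), which gave the fragments; the library size used by the authors was 0.925 to 1.09 times their sum, so the values carry a scaling between libraries. Intervals on fragments cover counting error only. The library kit does not mark strand.

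Values were tested as log2(FPKM + 1), which understates the change of low genes, with limma (3.58.1, R 4.3.3; moderated with a variance trend, no covariates, two-sided, Benjamini-Hochberg, threshold 0.05). The fit was tried on simulated fragments (5 draws of 8882 genes, 200 changed by 1 on the log2 scale, a single dispersion of 0.02). There 86.0% of changed genes were called and 5.5% of calls were false. The simulation held no library that stood apart, no trend with gene length and far fewer changed genes than were called here. Its rates therefore need not hold for the real libraries. Alternatives were pseudocounts of 0.1 and 0.01, no filter, a mean of at least 5 FPKM, equal library sums (a TPM scale), quantile normalization, sample quality weights, dropping the variance trend, limma voom on the fragments, a loess correction for gene length (span 0.5), and leaving out each library. Named genes were the 9 members, Grn, list genes past the threshold (up to 4 per direction and list) and the 3 genes most like the member with the largest change, 1 of which is not reported here; Cd38, Panx1, Gnas, Entpd4 and the neighbours of receptor pairs were added after their values were seen. Members and lists were chosen with earlier results of these data known.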

Additional observations from a re-analysis of the deposited data

How the results depend on the processing

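Of 126 alternative values of the 8 tested members, 124 kept direction and call, none changed sign, and 2 passed only in the alternative, both of Adora2a. With a mean of at least 5 FPKM, 3 of 6 members passed, since P2rx7 did not reach that level. Without a filter, which lets Ada in, 4 of 9 passed, and elsewhere 4 or 5 of 8. Over all genes, the 2151 calls became 1366 among the 22912 genes tested if no filter is set, 4225 with sample quality weights and 2267 with voom on fragments. Leaving out 1 library gave 713 to 3668 calls, the lowest without WT replicate 1 and the highest without PGRN KO replicate 6. It was 855 and 883 without WT replicates 2 and 3, and 1390 without PGRN KO replicate 4. The share of calls that were higher was 42.8%, and 60.3% on the TPM scale; the cause was not tested. The 11 calls in the other lists became 6 on the TPM scale and 20 with sample quality weights, and 6 to 18 with each library left out, 6 without each WT library and 18 without PGRN KO replicate 6. Of 175 alternative values of these 11 genes, 36 lost the call and none changed sign. No paired analysis was possible because the labels give no pairing or batch. Replicates are numbered 1 to 3 in WT and 4 to 6 in PGRN KO, which does not show whether libraries were prepared in pairs. Depth limits Ada and, less so, Nt5e, which had 113 to 300 fragments a library.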
